A study of Mus musculus with 3 samples.

Results

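Aldehyde dehydrogenases, aldo-keto reductases and carbonyl reductases are enzymes that oxidise or reduce aldehydes and ketones. Aldehyde dehydrogenases turn aldehydes into acids with NAD or NADP, whereas aldo-keto and carbonyl reductases use NADPH to turn aldehydes and ketones into alcohols. Oxidants break down membrane lipids into reactive aldehydes, which these enzymes clear, and several members also serve retinoid, folate, amino acid, steroid and prostaglandin metabolism. In fat cells, the pathway that turns retinaldehyde into retinoic acid is known to influence adipocyte differentiation.

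The members were the 39 genes whose symbols start with Aldh, Akr or Cbr and a digit, of 18194 genes measured by a probe set that names only that gene. They were 20 aldehyde dehydrogenases (ALDH), 15 aldo-keto reductases (AKR) and 4 carbonyl reductases (CBR), read by 66 of the 45101 probe sets. Another 3 genes of these families in RefSeq, Akr1b3, Akr1b7 and Aldh3b3, had no such probe set in the annotation used. They were not analysed here. The rule rests on gene symbols.

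All 3 samples were 3T3-L1 adipocytes, which are mouse fibroblast-like cells brought to a fat cell state in culture, and had been treated with glucose oxidase. This enzyme makes hydrogen peroxide from glucose in the medium, and by the methods it was present for 2 h. The labels describe the source as insulin resistant cells and name preadipocytes as the tissue, while the growth protocol describes differentiated cells. Untreated arrays were not analysed here, so each value is a level after treatment, with no fold change and no test of the treatment. Nothing in the labels says whether the 3 samples were separate cultures, so the SDs may be technical.

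Values are log2 of the deposited intensity on the mouse4302 Affymetrix array, taken for each gene from its probe set with the highest mean. A gene was called above background when any of its probe sets exceeded 7.59 on this scale in all 3 arrays. That limit is the 95th percentile over 83 probe sets of sensory receptor genes (olfactory, vomeronasal and taste). Probe sets differ in how well they bind, so intensities of different genes were not ranked against each other. The median intensities of the arrays were 127.6, 126.9 and 126.9 on the linear scale, and the number of arrays limits the precision. Of the adipocyte markers, 8 of 9 were above background, with only leptin (Lep) not, and of the preadipocyte and fibroblast markers 6 of 7, including Dlk1 at 13.24. Counts for other cell types were 2 of 7 for liver, 2 of 5 for steroid-making cells, 2 of 6 for macrophages and 1 of 4 for endothelial cells, with Alb at 6.61, Cyp11a1 at 5.87, Adgre1 at 6.67 and Pecam1 at 5.50 below the limit. The markers of these types above it were Cyp2e1 at 10.14 and Ttr at 8.49 for liver, Star at 8.63 and Cyp21a1 at 7.70 for steroid-making cells, Lyz2 at 11.19 and Csf1r at 8.70 for macrophages, and Kdr at 8.29 for endothelial cells. Their part in the levels of the members was not tested.

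After glucose oxidase, 24 of the 39 members (61.5%) were above background, beside 54.2% of all genes measured. By family, 14 of 20 aldehyde dehydrogenases, 6 of 15 aldo-keto reductases and 4 of 4 carbonyl reductases were above background. The members were also split by hand into smaller groups, with earlier results of these data known. Differences between families or groups were not tested. All 4 carbonyl reductases and all 5 measured genes of the AKR1A, AKR1B, AKR1E and AKR7 subfamilies were above background. So were 6 of 7 aldehyde dehydrogenases of amino acid and carnitine metabolism and both folate dehydrogenases. Of the class 3 and other aldehyde dehydrogenases, 4 of 5 were above background, and of the mitochondrial acetaldehyde enzymes 1 of 2. In contrast, only 1 of 10 AKR1C, AKR1C-like and AKR1D genes and 1 of 4 genes of the retinaldehyde dehydrogenase subfamily were above it. Of 9 members assigned to mitochondria here, 8 were above background, and of the other 30, 16 were. The other 30, which include Aldh7a1 and Akr7a5, were not shown to be absent from mitochondria. This grouping was made after the values were seen, and the difference was not tested.

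In 4 pairs of adjacent members, one gene was above background and the other was not. Promoter sequences are shown for 2 of them, Aldh1a7 beside Aldh1a1 and Akr1c14 beside Akr1c18, in which both genes belong to one subfamily and both had a promoter window. Aldh3a1, beside Aldh3a2, had no window, and Akr1c21 and Akr1e1 are of different subfamilies. Each window runs from 250 bases before to 50 bases after a transcription start in RefSeq on GRCm38.p6, and is written along the gene's own strand. The windows lie at chr19:20727507-20727806 on the minus strand for Aldh1a7, chr19:20601718-20602017 on the plus strand for the second start of Aldh1a1, chr13:4059341-4059640 on the plus strand for Akr1c14 and chr13:4150597-4150896 on the minus strand for Akr1c18. Capitals mark the TATA box letters TATAAA, the CCAAT box letters CCAAT and the AP-1 site letters TGANTCA, each searched on both strands.
Aldh1a7: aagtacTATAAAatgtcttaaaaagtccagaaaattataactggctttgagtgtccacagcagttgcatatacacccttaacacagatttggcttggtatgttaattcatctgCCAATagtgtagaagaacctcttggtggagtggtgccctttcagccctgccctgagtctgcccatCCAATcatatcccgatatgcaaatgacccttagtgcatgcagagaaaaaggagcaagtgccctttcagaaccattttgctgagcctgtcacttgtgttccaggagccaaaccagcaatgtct
Aldh1a1: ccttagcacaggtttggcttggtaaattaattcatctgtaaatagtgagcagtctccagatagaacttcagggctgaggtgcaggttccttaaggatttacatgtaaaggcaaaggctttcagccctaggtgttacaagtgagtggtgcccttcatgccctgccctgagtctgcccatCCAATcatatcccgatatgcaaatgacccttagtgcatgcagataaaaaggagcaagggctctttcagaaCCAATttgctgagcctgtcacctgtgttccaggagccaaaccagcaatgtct
Akr1c14: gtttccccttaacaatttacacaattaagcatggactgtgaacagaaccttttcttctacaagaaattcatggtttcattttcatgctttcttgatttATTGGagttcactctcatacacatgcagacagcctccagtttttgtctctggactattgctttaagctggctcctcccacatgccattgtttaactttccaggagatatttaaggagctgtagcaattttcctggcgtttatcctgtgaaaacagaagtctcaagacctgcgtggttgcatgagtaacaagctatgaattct
Akr1c18: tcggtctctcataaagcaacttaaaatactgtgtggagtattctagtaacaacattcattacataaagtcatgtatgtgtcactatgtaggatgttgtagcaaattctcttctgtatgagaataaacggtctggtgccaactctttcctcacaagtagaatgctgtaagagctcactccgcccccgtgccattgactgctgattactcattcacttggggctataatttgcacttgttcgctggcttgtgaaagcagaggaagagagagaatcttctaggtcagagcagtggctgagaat
The Aldh1a7 window and this second-start window of Aldh1a1 aligned over 160 positions, of which 152 were identical. Both held a CCAAT 72 bases before the start. The TATAAA of Aldh1a7 began 244 bases before its start, and the Aldh1a1 window shown did not hold these letters. The window at the first start of Aldh1a1, which is not shown, aligned with Aldh1a7 over only 18 positions, of which 15 were identical, and held the AP-1 letters. The Akr1c14 and Akr1c18 windows shared only a local stretch of 25 positions, with 20 identical. Akr1c14 held a CCAAT on the opposite strand, and Akr1c18 held none of the 3 motifs.

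Retinaldehyde dehydrogenases make retinoic acid, the ligand of retinoic acid receptors. Aldh1a1, Aldh1a2 and Aldh1a3, 3 members best known for this step, were all below the limit in every array. Aldh1a1 was at 6.61, 6.66 and 6.42 in replicates 1, 2 and 3, Aldh1a2 at 5.74, 5.74 and 5.89, and Aldh1a3 at 6.48, 6.49 and 6.32. None of the 3 probe sets of Aldh1a3 passed. Aldh1a7, a close relative of Aldh1a1 found in rodents and its neighbour on chromosome 19, was instead at 12.35, 12.41 and 12.34, a mean of 12.37 ± 0.04 (SD, n = 3). Each of this pair was read by a single probe set. Whether the Aldh1a7 probes also bind Aldh1a1 transcripts was not tested. Of 20 measured genes of retinoid handling outside these families, 12 were above background, beside 54.2% of all genes.

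Mitochondrial acetaldehyde dehydrogenases clear acetaldehyde and lipid aldehydes. Aldh2, the main acetaldehyde enzyme of the body, was at 12.62, 12.71 and 12.78 by its highest probe set (12.70 ± 0.08, SD, n = 3). Its other 4 probe sets had means between 6.90 and 7.51, so the call for Aldh2 rests on 1 of 5 probe sets. Aldh1b1, the other mitochondrial enzyme with this activity, was at 4.95, 5.07 and 5.08 and below the limit in all arrays.

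Both formyltetrahydrofolate dehydrogenases, which return folate-bound one-carbon units as carbon dioxide, were above background. The cytosolic enzyme gene Aldh1l1 was at 8.28, 8.30 and 8.32 by a probe set that passed, while its other probe set had a mean of 5.87. Aldh1l2, which encodes the mitochondrial form, was at 9.50, 9.51 and 9.61 (9.54 ± 0.06, SD, n = 3). Of 11 other measured genes of folate one-carbon metabolism, 9 were above background, beside 54.2% of all genes.

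Among the members of amino acid metabolism, Aldh6a1, which encodes the methylmalonate semialdehyde dehydrogenase of valine breakdown, was at 12.81, 12.85 and 12.81. Its SD of 0.02 (n = 3) made it a level with little difference between the arrays. All 14 measured genes of branched-chain amino acid breakdown, the pathway that Aldh6a1 serves, were above background as well, beside 54.2% of all genes. Aldh18a1 and Aldh4a1 act in opposite directions between glutamate and proline, by way of pyrroline carboxylate. Aldh18a1, the synthase, was at 10.28, 10.23 and 10.36 by a probe set that can cross-hybridise by its identifier, and its one probe set without that mark had a mean of 8.73. Of its 5 probe sets, 4 passed and 1, with a mean of 6.94, did not. Aldh4a1, the dehydrogenase, was at 9.57, 9.72 and 9.89. The arrays were furthest apart for Aldh4a1 among the members above background, with replicate 1 lowest and replicate 3 highest. Of 7 other measured genes of proline and ornithine metabolism, 4 were above background, beside 54.2% of all genes.

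Aldh7a1 encodes an enzyme of lysine breakdown, and was at 9.93, 9.97 and 9.96 by the only one of its 3 probe sets that passed. Its other 2 had means of 5.62 and 5.89. Aldh5a1, the succinic semialdehyde dehydrogenase that ends GABA breakdown, was at 7.90, 7.84 and 7.97, close to the limit in each array. Only 1 of 6 other measured genes in a list of GABA and lysine metabolism was above background, beside 54.2% of all genes. That list also holds Gad1 and Gad2, which belong to GABA synthesis and not to breakdown. Aldh9a1, whose enzyme oxidises an aldehyde of carnitine synthesis, was at 11.70, 11.68 and 11.77 (11.71 ± 0.05, SD, n = 3), and both of its probe sets passed. Aldh8a1, linked to tryptophan breakdown in humans, was the one member that straddled the limit. It was at 7.53, 7.38 and 7.59, above the limit only in replicate 3, and so was not called.

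The class 3 enzymes act on fatty and aromatic aldehydes. Aldh3a2, the fatty aldehyde dehydrogenase of the endoplasmic reticulum, was at 9.17, 9.16 and 9.11, whereas its neighbour Aldh3a1, best known as an abundant protein of the cornea, was at 5.55, 5.39 and 5.33. All 3 arrays lay above the limit for Aldh3a2 and below it for Aldh3a1. Aldh3b1 and Aldh3b2 encode lipid-bound aldehyde dehydrogenases. Aldh3b1 was at 8.66, 8.61 and 8.62, and Aldh3b2 at 8.45, 8.61 and 8.46. Aldh16a1, an unusual member whose mammalian protein lacks the usual catalytic cysteine, was at 9.25, 9.34 and 9.33, with both of its probe sets above background.

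**Figure D1:**
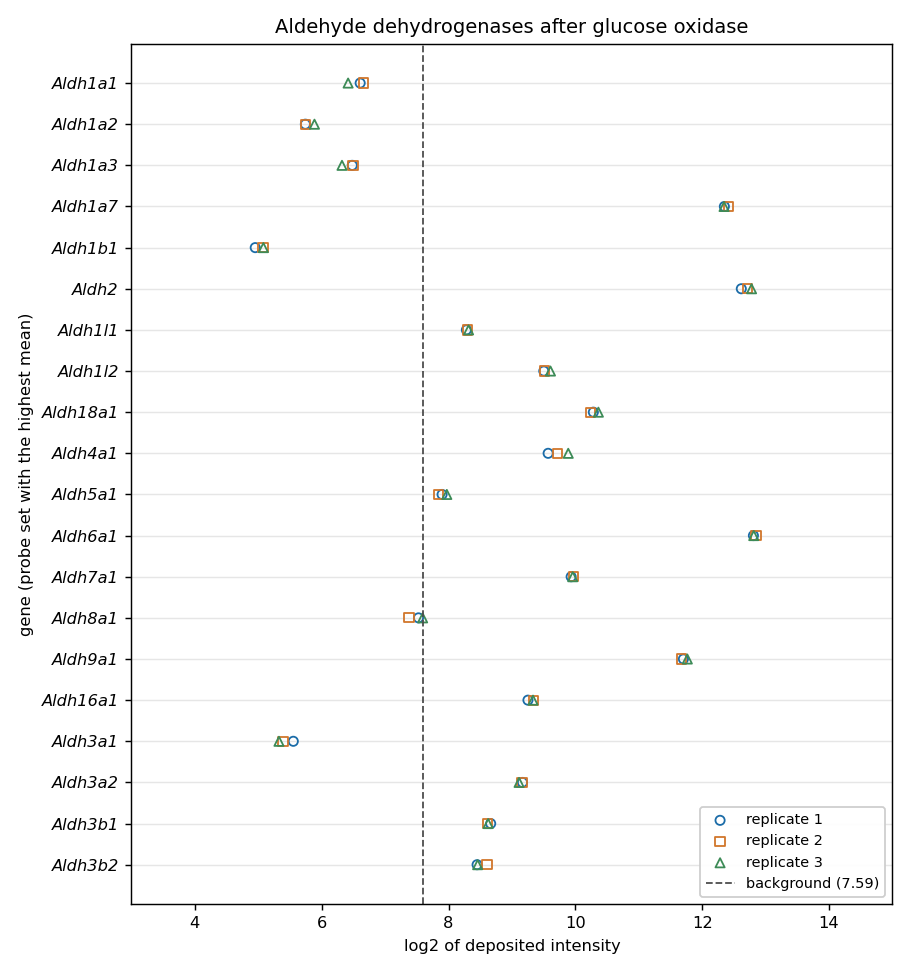
Log2 of the deposited intensity (x axis) of the 20 aldehyde dehydrogenase genes (y axis, grouped by role) in the 3 glucose oxidase arrays, with 1 symbol per replicate and background as a dashed line at 7.59. In 14 genes every symbol lies right of the line, and the symbols of a gene nearly coincide except in Aldh4a1 and a few genes at low intensity.

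The measured aldo-keto reductases that reduce small aldehydes and sugars were all above background. Aldose reductase (Akr1b3) and Akr1b7 were not among them, as no probe set named either gene alone. Akr1a1, an aldehyde reductase that also serves vitamin C synthesis in mice, was at 13.27, 13.27 and 13.24, and all 4 of its probe sets passed, with means between 12.53 and 13.26. Akr7a5, an aldehyde reductase known for reducing aflatoxin dialdehyde and succinic semialdehyde, had a mean of 11.99 ± 0.01 (SD, n = 3) and was lowest in replicate 3, at 11.98. That probe set can cross-hybridise by its identifier, and the next one had a mean of 10.95. Akr1e1, which reduces anhydrofructose, was at 8.86, 8.93 and 8.79 by 1 of its 2 probe sets.

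Akr1b8 and Akr1b10, neighbours on chromosome 6, encode enzymes related to aldose reductase. Akr1b8 was at 11.37, 11.35 and 11.35, and its SD of 0.01 (n = 3) was the smallest among the members above background. Akr1b10 was at 9.10, 9.29 and 9.25 by its highest probe set, and its other 2 had means of 6.06 and 4.88. The mouse gene of this symbol is also listed as Akr1b16 in RefSeq, so the name does not by itself make it the counterpart of human AKR1B10.

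AKR1C enzymes interconvert active and inactive steroids and also act on prostaglandins. In RefSeq, 8 measured AKR1C genes and Akr1e1 follow each other on chromosome 13 with no other protein-coding gene between them. Within this row, only the genes at its ends, Akr1c14 and Akr1e1, were above background. Akr1c14, a 3alpha-hydroxysteroid dehydrogenase gene, was at 9.14, 8.97 and 9.07 (9.06 ± 0.09, SD, n = 3). Akr1c18, its neighbour, encodes the 20alpha-hydroxysteroid dehydrogenase that inactivates progesterone, and was at 7.40, 7.50 and 7.32, just under the limit in every array. Akr1c21 had a mean of 7.01 ± 0.02 (SD, n = 3). The other AKR1C genes had means between 5.39 for Akr1c19 and 5.97 for Akr1c6, a gene best known from liver, with Akr1c12, Akr1c13 and Akr1c20 in between. A probe set shared by Akr1c12 and Akr1c13 was not used.

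**Figure D2:**
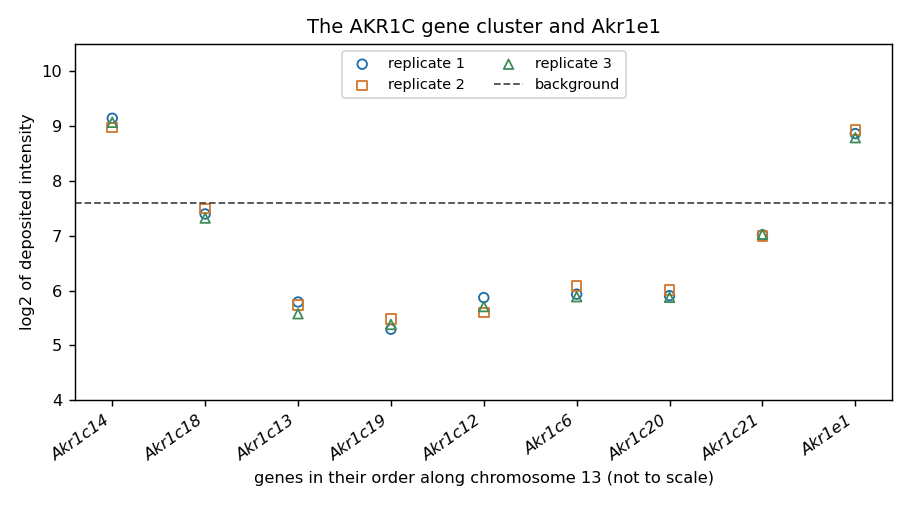
Log2 of the deposited intensity (y axis) of the 8 AKR1C genes and Akr1e1 in their order along chromosome 13 (x axis, not to scale), with 1 symbol per replicate of glucose oxidase and background as a dashed line at 7.59. Only Akr1c14 at one end and Akr1e1 at the other lie above the line, with means of 9.06 and 8.86.

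Outside this cluster, the AKR1C-like gene Akr1cl was at 7.38, 7.44 and 7.36, and Akr1d1, the 5beta-reductase of bile acid and steroid hormone metabolism, at 6.53, 6.68 and 6.42. Neither passed the limit in any array, with either of its 2 probe sets. Markers of liver and of steroid-making cells, where several of these genes are known to be abundant, were above background for 2 of 7 (Ttr and Cyp2e1) and 2 of 5 (Star and Cyp21a1). Their part in the low AKR1C and AKR1D signal was not tested.

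The carbonyl reductases were all above background, each by its single probe set. Cbr1, which reduces quinones and prostaglandins in the cytosol, was at 11.17, 11.24 and 11.18, and Cbr3, its neighbour on chromosome 16, at 11.84, 11.95 and 11.88. Both lay well above the limit in every array. Cbr2, a mitochondrial carbonyl reductase known from mouse lung, was at 11.34, 11.38 and 11.27. Cbr4, a subunit of the ketoacyl reductase of mitochondrial fatty acid synthesis, was at 10.84, 10.87 and 10.87 (10.86 ± 0.02, SD, n = 3). Of 19 measured genes in a list of alcohol dehydrogenases and other enzymes linked to carbonyl compounds, 16 passed, beside 54.2% of all genes. That list is broad and also holds Gsta4, Glo1, Hagh and Khk. Of 7 measured genes in a list of prostaglandin and thromboxane metabolism, 5 were above background, beside 54.2% of all genes. Hpgd and Tbxas1 were not.

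**Figure D3:**
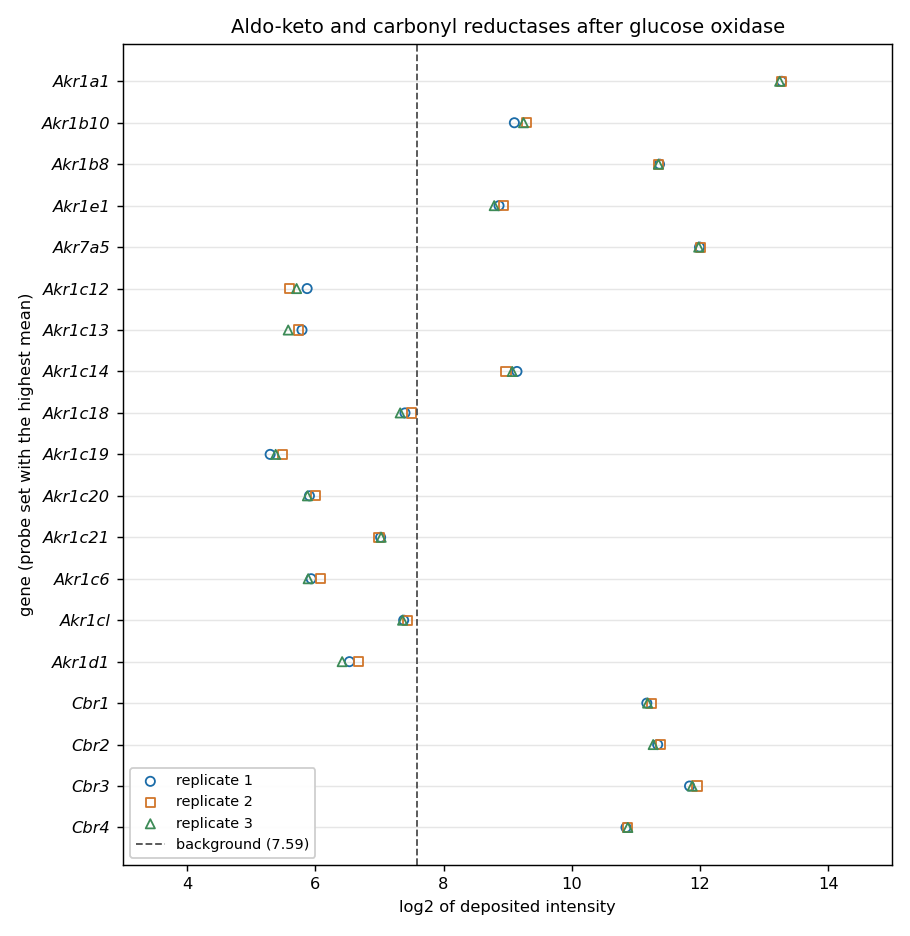
Log2 of the deposited intensity (x axis) of the 15 aldo-keto and 4 carbonyl reductase genes (y axis) in the 3 glucose oxidase arrays, with 1 symbol per replicate and background as a dashed line at 7.59. The 5 genes at the top and the 4 Cbr genes at the bottom lie right of the line in every replicate, and of the 10 genes between them only Akr1c14 does.

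How a gene was called depended on its probe sets. Of the 15 members with more than 1 probe set, 7 had probe sets on both sides of the limit, beside 46.5% of all genes with at least 2. Probe set means ran from 4.38 to 11.99 for Akr7a5 and from 6.90 to 12.70 for Aldh2, in both cases with the lowest below the limit. For Akr1a1, Aldh9a1 and Aldh16a1, every probe set passed. When the median over a gene's probe sets replaced the highest, 19 of the 39 members were above background, beside 43.6% of all genes. The 5 that then failed were Aldh2, Aldh7a1, Aldh1l1, Akr1b10 and Akr1e1, with medians of 7.18, 5.89, 7.09, 6.06 and 7.48.

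**Figure D4:**
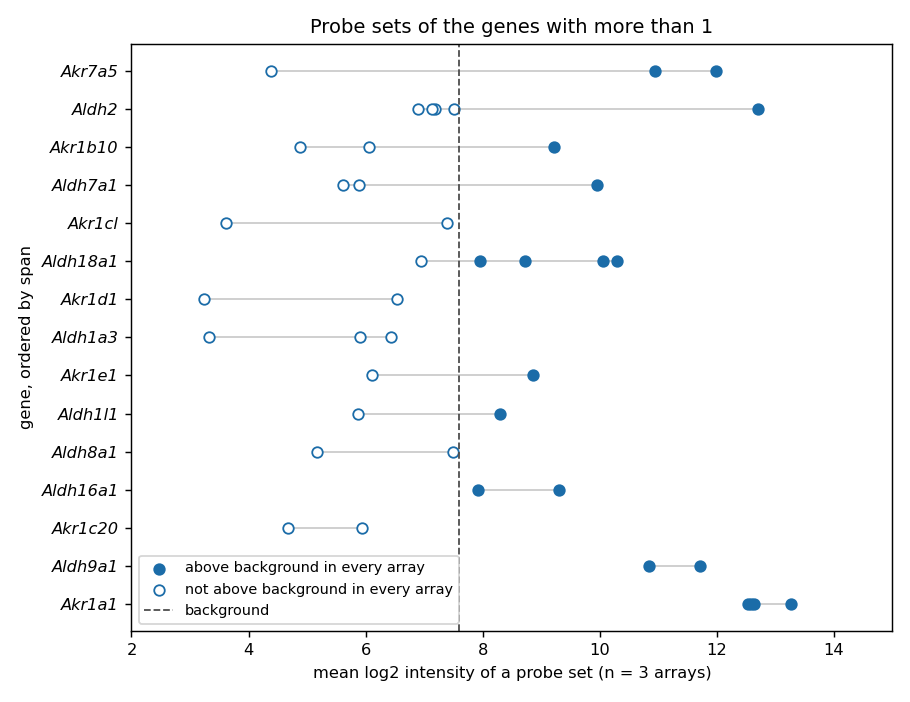
Mean log2 intensity over the 3 arrays (x axis) of each probe set of the 15 members that have more than 1 (y axis, widest span at the top), filled where all 3 arrays exceeded background and open where they did not. The dashed line is background at 7.59, and Akr7a5, Aldh2, Akr1b10, Aldh7a1, Aldh18a1, Akr1e1 and Aldh1l1 have circles of both kinds.

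The 3 arrays gave nearly the same levels for these enzymes. The median SD of the 24 members above background was 0.048 on the log2 scale, and that of all 9868 genes above background was also 0.048. Among these 24, only Aldh4a1 had a range between arrays over 0.2, or 1.15-fold, beside 7.21% of all genes above background. Its range was 0.32 and its SD 0.16 (n = 3), larger than 98.8% of the SDs of those genes. Without replicate 1 or without replicate 3, none of the members above background had a range over 0.2. Leaving out an array can only narrow a range or keep it. Of the 15 members not above background, 6 had a range over 0.2, as did 2398 of all 8326 genes not above it. When probe sets that can cross-hybridise were left out, Aldh18a1 was read by another probe set, at 8.60, 8.73 and 8.86, and then also had a range over 0.2. In that probe set and in Aldh4a1, replicate 1 was lowest and replicate 3 highest. Of all genes above background, replicate 1 was lowest in 44.8% and replicate 3 highest in 40.9%. In the highest probe set of Aldh18a1, replicate 2 was lowest. Across the members above background, 16 of 24 were higher in replicate 2 than in replicate 1, as were 61.9% of all genes above background.

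**Figure D5:**
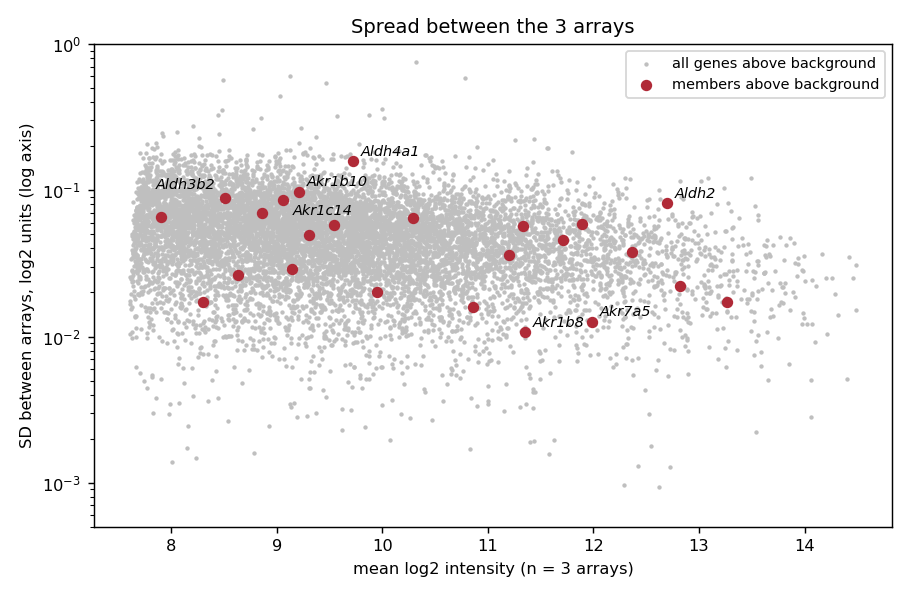
SD between the 3 arrays in log2 units (y axis, log scale) against mean log2 intensity (x axis) for members above background (red, n = 24) and all 9868 genes above background (grey). The members lie within the grey cloud, between 0.01 for Akr1b8 and 0.16 for Aldh4a1.

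Promoter windows were found for 32 members, 20 of them above background. TGACNNNGC, the core of the antioxidant response element bound by NRF2, was searched on both strands and occurred in 4 of the 32, namely Aldh9a1, Aldh1a2, Akr1c19 and Akr1cl. It occurred in at least 1 window of 14.0% of all 27025 genes with one. These shares, like the member counts, are per gene, and a gene with several starts, as 2 members have, has more chances of a match. Of these 4 genes, only Aldh9a1 was above background. TATAAA was in 3 members, Aldh1a7, Akr1b8 and Akr1c6, beside 15.7% of all genes, CCAAT in 17, beside 41.1%, and GGGCGG, a GC box, in 11, beside 38.2%. The AP-1 letters TGANTCA, which can overlap TGACNNNGC, were in 1 member, at the first start of Aldh1a1, beside 9.0%. A match is only a string of letters anywhere in this window, whatever its distance from the start. Other forms of these motifs and sites further away were not searched.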

How the data were processed

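RNA of 3 samples of glucose oxidase-treated 3T3-L1 adipocytes was hybridised to the mouse4302 array. The authors ran RMA background correction and normalization in affyPLM (version: not given in the sources used here). The deposited intensity values are linear, and which arrays were normalized together and any later scaling are unknown. Log2 was taken as deposited.

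The platform annotation gave the gene of each probe set (34958 with 1 gene, 932 with several, 9211 unnamed here). By Entrez identifier, 34754 matched RefSeq genes of GRCm38.p6, and 0 symbols changed. Promoters are from RefSeq. The members and lists were chosen with earlier results of these data known. Every member was named. With 1 group, no test was possible. Pathway and marker lists gave counts.

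Alternatives were other background percentiles (99 and 90) and genes, the median of probe sets, leaving out probe sets ending in _x_at or _s_at, centring, and leaving out each array. Python 3.11.15, pandas 2.3.3, numpy 2.4.6, biopython 1.88 and matplotlib 3.10.9 were used.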

Additional observations from a re-analysis of the deposited data

How the results depend on the processing

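The count of 24 members above background was 24 with the 90th percentile as background, without probe sets that can cross-hybridise and on leaving out each array. It was 23 with the 99th percentile (8.20) and with a background of keratin-associated and defensin genes (8.06), where Aldh5a1 was lost. With the median of probe sets it was 19. The share of all genes was 54.2% in the main setting and 43.6% with the median, and was not worked out for the other settings. Of the 84 measured pathway genes, 61 were above background, beside 54.2% of all genes, and 55 to 61 under the alternatives. With the median of probe sets, 57 of them were, beside 43.6% of all genes. Members with probe sets on both sides of the limit numbered 7, and 6 to 8 under the alternatives. The median SD of members above background was 0.034 to 0.057 under the alternatives. Members above background with a range over 0.2 numbered 2 with the median of probe sets and 2 without probe sets that can cross-hybridise. These were Aldh4a1 and Aldh18a1 both times. On leaving out each array, which cannot widen a range, the count was 0 to 1.

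With the median of probe sets, 15 of 39 levels moved by more than 1 SD, 10 of them by more than 1 on the log2 scale. These 15 were all the members with more than 1 probe set, and the other 24, with a single probe set, cannot move. Without probe sets that can cross-hybridise, 2 levels moved by more than 1 SD, Aldh18a1 to 8.73 and Akr7a5 to 10.95. Centring keeps the mean, and leaving out 1 of 3 arrays moved no level by more than 1 SD, as its construction requires. Signal near background limits the calls for Aldh5a1, Aldh8a1, Akr1c18 and Akr1cl. No paired analysis was possible because there is only 1 group.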
